A study of Mus musculus with 8 samples.

Results

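Insulin and the insulin-like growth factors (IGFs) act through a small set of genes, and 10 of them are described here in a mouse lung tumour line with and without disruption of Stk11. They are the receptor genes Insr and Igf1r, the substrate genes Irs1 and Irs2, and the binding protein genes Igfbp2, Igfbp3, Igfbp4, Igfbp5, Igfbp6 and Igfbp7. These 10 genes were chosen by name from the 56884 genes of the deposited count table, with earlier results of these data known. Each matched 1 row. The samples were untreated cultures of Lacun3, a murine lung adenocarcinoma line: 4 libraries of the parental line (STK11 WT) and 4 of a CRISPR-edited line (STK11 KO). All 8 cultures grew in DMEM with fetal bovine serum, which itself carries insulin-like factors, and were taken in logarithmic growth. The labels name 1 edited line and do not say whether it is a clone or a pool, so a difference between groups is a difference between these lines. Stk11 encodes LKB1, the kinase that activates AMPK and related kinases.

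In this pathway, insulin binds the receptor encoded by Insr, and IGF1 and IGF2 bind the related receptor encoded by Igf1r. Both receptors are tyrosine kinases that phosphorylate IRS1 and IRS2, docking proteins that recruit PI3-kinase and so lead to AKT, which in turn keeps FOXO transcription factors out of the nucleus. IGF-binding proteins are secreted. They bind IGFs outside the cell, limit or prolong their access to the receptor, and are cut by proteases such as the pappalysins; IGFBP7 differs from the others in its low affinity for IGFs.

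Parental libraries held 18837263 to 21101904 counts and knockout libraries 21441601 to 25715008. Levels are given as CPM, the usual depth-scaled count unit, on library sizes after TMM scaling, with 1 count worth 0.0388 to 0.0515 CPM. Stk11 was present at 64.6 to 68.4 CPM in parental and 33.4 to 35.3 CPM in knockout libraries, which left 52.4% of the parental level in the edited line; a count over the whole gene does not tell whether the protein is lost. Stk11 overlaps Cbarp on the opposite strand by 232 bp, and the log2 fold change of Cbarp was 0.82. Knockout replicate 3 stood apart within its group: the chi-square of counts per degree of freedom was 13.0 to 18.9 in pairs with it and at most 8.9 in every other pair. The epithelial markers Epcam, Krt8, Krt18, Krt19 and Cdh1 summed to 8150 to 8580 CPM in parental and 7690 to 8600 CPM in knockout libraries. The keratins made up nearly all of that sum, and single markers moved in opposite directions. Mean Krt18 fell from 2314 to 1649 CPM (edgeR adjusted p = 8.15e-07) and Epcam from 27.3 to 22.2 CPM (edgeR adjusted p = 0.015). Krt19 rose from 2987 to 3484 CPM (edgeR adjusted p = 0.00213), while Krt8 and Cdh1 did not pass the test. The lung epithelial markers Nkx2-1, Sftpc, Sftpb and Scgb1a1 were at or near 0 (at most 0.139 CPM in sum), so the lung label is not borne out by these 4 genes.

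Substrate and binding protein transcripts were lower in the knockout line and neither receptor gene was called lower. Of the 10 genes, 8 had enough counts to be tested, and 2, Igfbp2 and Igfbp5, had none. Of the 8 tested genes, 6 fell (Irs1, Irs2, Igfbp3, Igfbp4, Igfbp6 and Igfbp7), 1 rose (Igf1r) and 1 did not pass (Insr), with 0.05 as the threshold on the adjusted p of edgeR's quasi-likelihood test. The background is high: 68% of 13707 tested genes passed, of which the higher ones made up 34.4% of all tested and the lower ones 33.6%. The 7 of 8 that passed (87.5%) are to be read against that rate. At least 2-fold lower and past the test were 5 of the 8 (Irs1, Irs2, Igfbp3, Igfbp6 and Igfbp7), against 9.41% of all tested genes. Of these, Igfbp6 had few counts, and its log2 fold change was -0.827 without knockout replicate 4. Without knockout replicate 3 there were 1 higher and 5 lower members, Igfbp6 having lost its call. The median log2 fold change (knockout over parental) of the 8 was -1.23, beside 0.01 for all tested genes, and their median absolute log2 fold change was 1.23, beside 0.37. In 5 of the 8 the libraries of the groups did not overlap, which held for 60.6% of all tested genes. Because the members were chosen with earlier results known, these shares and medians beside all genes are no test of the family. In bulk RNA, fewer cells that express a gene and less RNA per cell cannot be told apart.

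**Figure D1:**
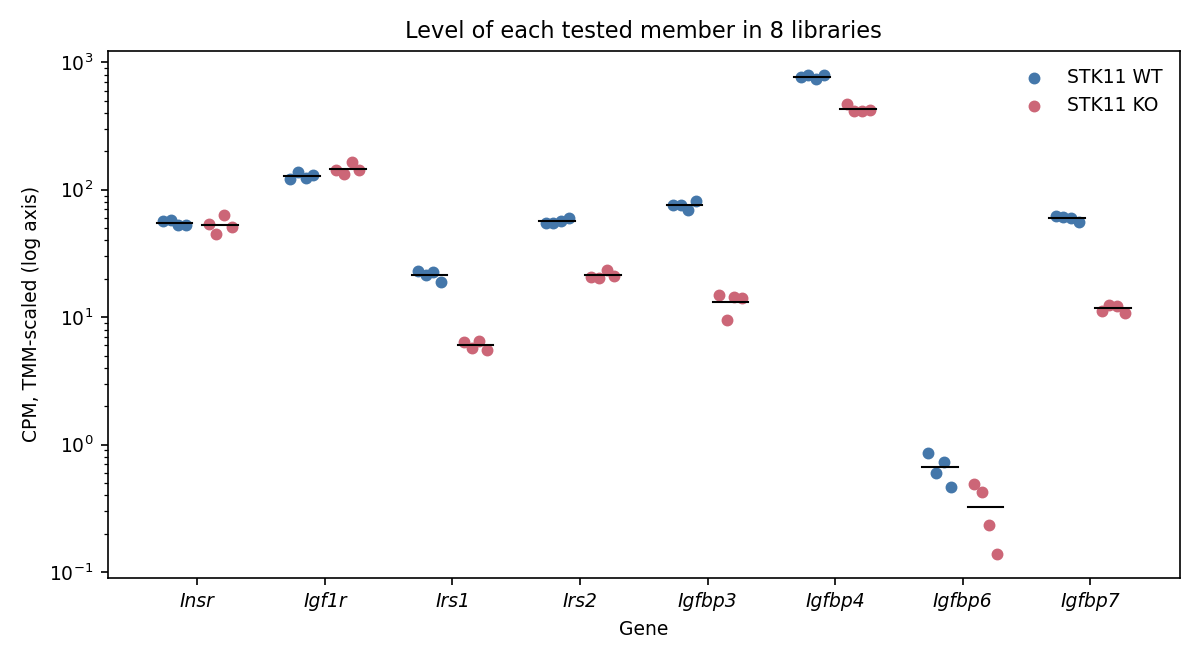
CPM of the 8 tested genes in each library on a log axis; points are libraries in replicate order, blue for STK11 WT and red for STK11 KO, and black lines are group means. Irs1, Irs2, Igfbp3, Igfbp4 and Igfbp7 have no overlap between groups, while Insr, Igf1r and Igfbp6 overlap.

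**Figure D2:**
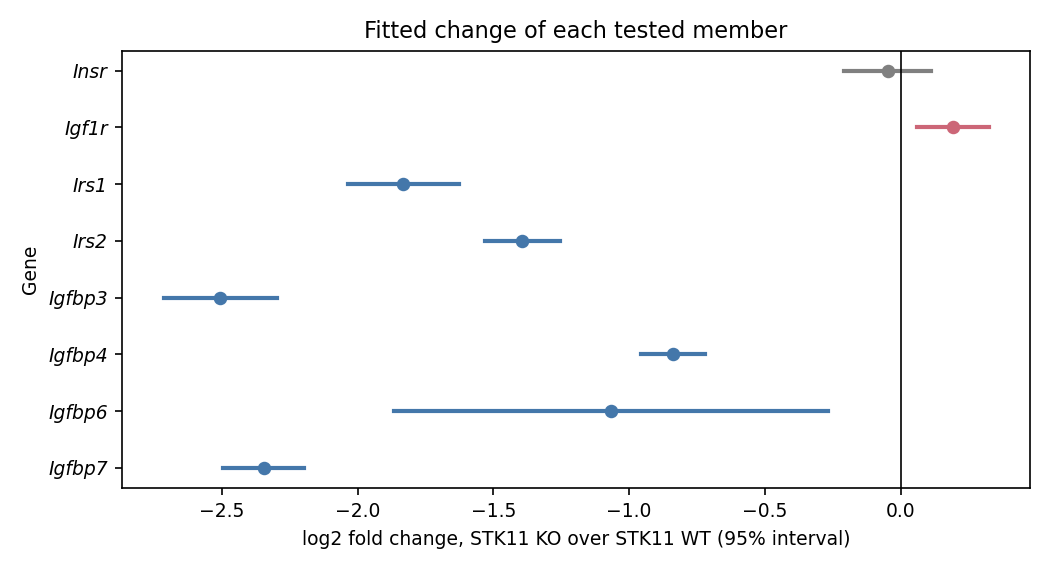
Fitted log2 fold change, knockout over parental, of the 8 tested genes with 95% intervals; blue marks genes lower in the knockout, red higher and grey not past the test. Igfbp3 at -2.51 and Igfbp7 at -2.35 lie furthest from 0, and the interval of Igfbp6 is the widest.

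The receptor genes differed little between the lines. Insr (ENSMUSG00000005534.11; GRCm39 chromosome 8, 3172061 to 3329617, minus strand) encodes the insulin receptor. It was at 56.5, 57.4, 53.1 and 52.9 CPM in parental replicates 1 to 4 and at 53.9, 45.1, 62.9 and 50.6 CPM in the knockout replicates. The knockout values spread on both sides of the parental ones, with knockout replicate 3 the highest and replicate 2 the lowest of all 8. Its log2 fold change was -0.05 ± 0.08 (SE; edgeR adjusted p = 0.605), with a 95% interval from -0.21 to 0.11, so that a change beyond 0.21 in either direction lies outside the interval. Without knockout replicate 3 the value was -0.14 (edgeR adjusted p = 0.0531), and without knockout replicate 2 it was 0.03 (edgeR adjusted p = 0.748).

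Igf1r (ENSMUSG00000005533.11; chromosome 7, 67602575 to 67883416, plus strand), the receptor for IGF1 and IGF2, was at 121, 138, 123 and 130 CPM in parental and at 142, 134, 166 and 143 CPM in knockout libraries. Parental replicate 2 lay above knockout replicate 2, so the groups overlapped, and knockout replicate 3 was again the highest. Igf1r rose by 0.19 ± 0.06 on the log2 scale (SE; edgeR adjusted p = 0.0106), or 1.14-fold. An exact permutation test of the 8 CPM values, two-sided over all 70 assignments, gave p = 0.0571 (n = 4 per group; the smallest possible is 0.0286). The call was lost when libraries were scaled by size alone (0.11, edgeR adjusted p = 0.158), and the value was 0.13 without knockout replicate 3 (edgeR adjusted p = 0.0362). Without parental replicate 1 the value was 0.165, with an edgeR adjusted p that rounds to the threshold of 0.05. Per library, the ratio of Insr to Igf1r CPM was 0.407 to 0.466 in parental and 0.337 to 0.38 in knockout libraries, with no overlap.

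The substrate genes Irs1 and Irs2 both fell, with no overlap between the lines. Irs1 (ENSMUSG00000055980.3; chromosome 1, 82210822 to 82269137, minus strand) encodes the docking protein that links both receptors to PI3-kinase. It was at 23.1, 21.4, 22.5 and 18.9 CPM in parental and at 6.34, 5.74, 6.52 and 5.51 CPM in knockout libraries. Every knockout library lay below every parental library. Irs1 fell by 1.83 ± 0.10 on the log2 scale (SE; edgeR adjusted p = 1.84e-13). The knockout kept 28.1% of the parental level (95% interval 24.4% to 32.3%).

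Irs2 (ENSMUSG00000038894.8; chromosome 8, 11034681 to 11058458, minus strand) encodes the second widely expressed substrate. It was at 54.9, 54.9, 56.9 and 60 CPM in parental and at 20.8, 20.5, 23.6 and 21.2 CPM in knockout libraries, again with no overlap. Its log2 fold change was -1.39 ± 0.07 (SE; edgeR adjusted p = 2.27e-14). The knockout kept 38.1% of the parental level (95% interval 34.6% to 41.9%). The ratio of Irs1 to Irs2 CPM was 0.315 to 0.421 in parental and 0.26 to 0.304 in knockout libraries. The ratios did not overlap, with Irs1 lower relative to Irs2 in the knockout; this difference was not tested.

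Because Irs1 and Irs2 fell together, the 250 bases before their transcription starts are shown (RefSeq, GRCm38.p6, minus strand in both genes, 5′ to 3′). They cover chr1:82291440-82291689 for Irs1 and chr8:11008930-11009179 for Irs2. Capitals mark the longest runs of letters that both sequences share, 2 runs of 10 bases.
Irs1: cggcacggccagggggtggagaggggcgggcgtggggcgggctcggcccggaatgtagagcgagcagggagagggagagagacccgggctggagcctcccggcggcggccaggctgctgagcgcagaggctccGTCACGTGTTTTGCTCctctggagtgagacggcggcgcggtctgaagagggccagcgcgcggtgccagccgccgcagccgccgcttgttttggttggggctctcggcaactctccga
Irs2: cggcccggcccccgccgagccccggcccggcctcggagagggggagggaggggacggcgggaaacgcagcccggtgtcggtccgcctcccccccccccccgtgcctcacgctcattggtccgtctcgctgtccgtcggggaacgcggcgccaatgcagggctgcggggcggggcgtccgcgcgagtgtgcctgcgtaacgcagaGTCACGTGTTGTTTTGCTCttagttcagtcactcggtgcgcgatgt
In both genes the shared runs, GTCACGTGTT and TGTTTTGCTC, overlap each other. The first begins 117 bases before the start in Irs1 and 46 in Irs2, and the second begins 111 and 37 bases before it. The first run holds CACGTG, an E-box, the letters that helix-loop-helix factors such as MYC, USF and TFEB recognise. Among the members CACGTG was also in a window of Igfbp2, which had 0 counts in both lines. Among 32851 promoter windows of 300 bases, 7.15% held CACGTG and 2.25% held GTCACGTG on either strand, and each 10-base run was found in 0.0761%. The runs were picked as the longest that Irs1 and Irs2 share, and the windows counted include those of both genes. How long a run unrelated windows of similar letters would share was not tested, so the low share of windows is no sign of a common element. The E-box was looked for after the sequences were seen.

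The FOXO motif GTAAACA, the full cAMP response element TGACGTCA and the C/EBP-ATF motif TGATGCAA were in none of the 10 windows of the 9 members with an entry, on either strand. They occurred in 3.65%, 1.79% and 0.895% of all windows. The cAMP element's shorter form TGACG, which the full element contains, was in the Irs1 window alone among the members, where it overlaps the E-box on the opposite strand, and in 20.8% of all windows. A match is a description of letters and not of binding, and a motif missing from a window says nothing of sequence outside it.

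Each of the 4 binding protein genes that could be tested fell, among them Igfbp4, which had the highest level of the 10 members in both lines, as CPM and per kb. Igfbp4 (ENSMUSG00000017493.13; chromosome 11, 98932070 to 98945218, plus strand) encodes a binding protein that inhibits IGF action and is released from IGF by the protease PAPP-A. It was at 764, 799, 738 and 791 CPM in parental and at 473, 416, 415 and 424 CPM in knockout libraries. Knockout replicate 1 was the highest of its group and still below every parental library. Igfbp4 fell by 0.84 ± 0.06 on the log2 scale (SE; edgeR adjusted p = 1.31e-11). The knockout kept 55.9% of the parental level (95% interval 51.5% to 60.7%).

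Igfbp3 (ENSMUSG00000020427.12; chromosome 11, 7156086 to 7163923, minus strand) encodes the main IGF carrier of the blood. It was at 75.2, 75.2, 68.9 and 81.7 CPM in parental and at 15, 9.46, 14.3 and 14.1 CPM in knockout libraries. Knockout replicate 2 was the lowest, and no library overlapped. Its log2 fold change of -2.51 ± 0.10 (SE; edgeR adjusted p = 4.3e-14) left 17.6% of the parental level (95% interval 15.2% to 20.3%) and was the most negative of the 8 tested members. The neighbouring Igfbp1, 3.54 kb from Igfbp3 on the opposite strand, had 0 counts in all 8 libraries.

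Igfbp7 (ENSMUSG00000036256.14; chromosome 5, 77497087 to 77555888, minus strand) encodes the low-affinity member, a matrix-associated protein. It was at 62, 61.1, 59.8 and 55.5 CPM in parental and at 11.2, 12.6, 12.2 and 10.8 CPM in knockout libraries. The groups were far apart and each was tight. Igfbp7 fell by 2.35 ± 0.07 on the log2 scale (SE; edgeR adjusted p = 1.04e-17). The knockout kept 19.7% of the parental level (95% interval 17.7% to 21.8%). It overlaps Polr2b, on the opposite strand, by 85 bp, and Polr2b fell by 0.20 on the log2 scale (edgeR adjusted p = 0.00325); whether counting used strand was not found in the sources read.

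Igfbp6 (ENSMUSG00000023046.7; chromosome 15, 102052797 to 102057946, plus strand), whose product prefers IGF2, was near the limit of detection. It had 18, 13, 16 and 9 counts in parental libraries, or 0.856, 0.602, 0.733 and 0.463 CPM. In knockout libraries it had 10, 9, 6 and 3 counts, or 0.495, 0.424, 0.233 and 0.139 CPM. Parental replicate 4 lay below knockout replicate 1, so the groups overlapped. Its log2 fold change was -1.07 ± 0.39 (SE; edgeR adjusted p = 0.0181), with a 95% interval from -1.87 to -0.27, and p was 0.0571 in the same exact permutation test (two-sided, n = 4 per group). The call was lost with DESeq2 (adjusted p = 0.0738) and without parental replicate 1, knockout replicate 3 or knockout replicate 4 (edgeR adjusted p = 0.0625, 0.0552 and 0.0703).

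Igfbp2 (ENSMUSG00000039323.19; chromosome 1, 72863662 to 72891633, plus strand) and Igfbp5 (ENSMUSG00000026185.9; chromosome 1, 72897091 to 72914043, minus strand) had 0 counts in each of the 8 libraries. These neighbours face each other with their ends 5.46 kb apart. A count of 0 allows up to 3 counts over a group, or 0.0358 CPM for parental and 0.0338 CPM for knockout libraries; this limit covers counting error only. A change in either gene was not detectable at this depth.

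The last 100 bases before the start of the 3 well-counted binding protein genes, all called lower, are shown (RefSeq, GRCm38.p6, 5′ to 3′). They lie at chr11:7213924-7214023 on the minus strand for Igfbp3, chr11:99041144-99041243 on the plus strand for Igfbp4 and chr5:77408046-77408145 on the minus strand for Igfbp7. Capitals mark TATAAA or TATATA, letters of the TATA box that positions the start of transcription.
Igfbp3: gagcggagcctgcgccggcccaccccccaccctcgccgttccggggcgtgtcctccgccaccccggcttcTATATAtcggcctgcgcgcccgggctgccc
Igfbp4: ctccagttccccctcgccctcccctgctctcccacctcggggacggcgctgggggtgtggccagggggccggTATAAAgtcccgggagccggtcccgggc
Igfbp7: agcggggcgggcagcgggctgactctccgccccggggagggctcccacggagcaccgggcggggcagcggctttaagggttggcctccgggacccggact
TATATA began 30 bases before the start in Igfbp3 and TATAAA 28 bases before it in Igfbp4, and neither was in the stretch shown for Igfbp7. On either strand TATAAA was in 13.6% and TATATA in 5.67% of the 32851 windows. Among the members TATAAA was also in the window of Igfbp6. The whole windows of these genes were 71.7%, 71.3% and 73.3% G and C, beside a median of 52.7% over all windows. These motifs were looked for after the sequences were seen.

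Per kilobase of exon, the family's transcripts kept a steep order that differed between the lines. Lengths came from an older annotation (GENCODE M21), so levels compare genes only roughly. In parental libraries the order of the mean level, as CPM per kb, was Igfbp4 (175 ± 6.24, SD, n = 4), Igfbp7 (49.3 ± 2.38), Igfbp3 (24.1 ± 1.68), Irs2 (8.96 ± 0.377), Igf1r (7.63 ± 0.458), Insr (4.00 ± 0.169), Irs1 (2.35 ± 0.205) and Igfbp6 (0.597 ± 0.152). The library ranges of no neighbours in this order overlapped. In knockout libraries it was Igfbp4 (97.9 ± 6.24), Igfbp7 (9.68 ± 0.682), Igf1r (8.71 ± 0.831), Igfbp3 (4.22 ± 0.809), Insr (3.86 ± 0.542), Irs2 (3.40 ± 0.223), Irs1 (0.659 ± 0.0523) and Igfbp6 (0.290 ± 0.148). There Igfbp7 and Igf1r overlapped, as did Igfbp3, Insr and Irs2, so their order among themselves is not beyond their spread.

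The make-up of the family shifted with these changes. The substrates together stood at 0.889 to 1.02 times the receptors together in parental libraries, as a ratio of summed CPM per kb, and at 0.307 to 0.343 times in knockout libraries. The summed binding protein level was 249 ± 7.07 CPM per kb in parental and 112 ± 6.40 in knockout libraries (SD, n = 4). Of this sum Igfbp4 held 70.3% ± 0.794 in parental and 87.3% ± 0.747 in knockout libraries. Igfbp7 held 19.8% ± 1.13 and 8.67% ± 0.940, and Igfbp3 9.65% ± 0.520 and 3.76% ± 0.651. Sums and shares were not tested.

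**Figure D3:**
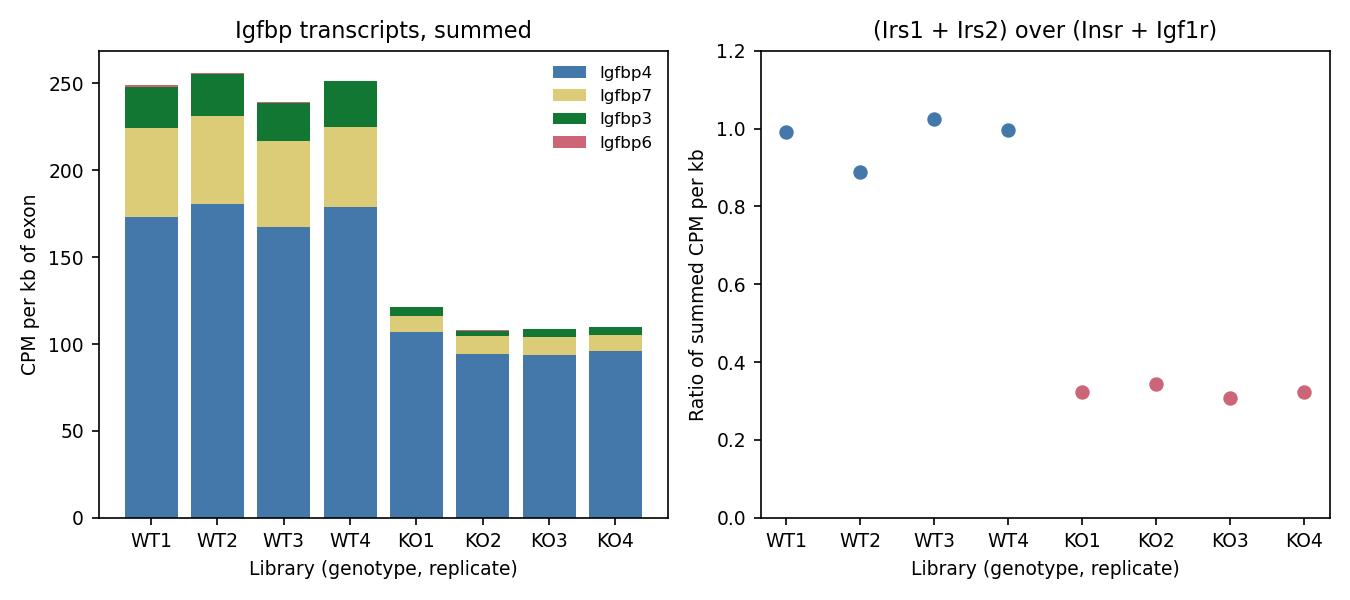
Left, CPM per kb of the binding protein genes stacked by library, from Igfbp4 at the base; right, the ratio of summed substrate to summed receptor CPM per kb in each library, blue for STK11 WT and red for STK11 KO. The sum is 239 to 256 in parental and 108 to 122 in knockout libraries, and the ratio does not overlap between groups.

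Binding protein genes are often abundant in fibroblasts, vessel walls and other stroma, so markers of such cells are given beside them. The 6 fibroblast markers (Col1a1, Col1a2, Dcn, Lum, Pdgfra and Thy1) summed to 2.98 to 4.71 CPM in parental and 2.02 to 2.97 CPM in knockout libraries, with Col1a2, Lum and Thy1 at 0 in all libraries. The 4 smooth muscle and pericyte markers (Acta2, Myh11, Rgs5 and Des) summed to 1.54 to 2.33 and 0.417 to 0.842 CPM, of which Des made up most. The 4 endothelial markers (Pecam1, Cdh5, Kdr and Tek) summed to 1.05 to 1.85 and 3.41 to 4.8 CPM, almost all of it Cdh5, with Kdr at 0. The 4 leukocyte markers (Ptprc, Cd68, Csf1r and Cd3e) summed to 46.4 to 52.9 and 13.1 to 25.6 CPM. That sum was nearly all Cd68, a lysosomal protein gene, while the pan-leukocyte gene Ptprc had 1 count in all. The part of other cells in the binding protein changes was not tested.

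Around these genes, a list of 82 pathway genes in 6 groups had 64 tested members, of which 34 fell, 18 rose and 12 did not pass. Over all tested genes 33.6% fell and 34.4% rose, and the counts of each group are to be read against these shares. The median of their log2 fold changes was -0.18. No ligand was detected: Igf1, Igf2, Ins1 and Ins2, like Igfbp1 and Igfbpl1, had 0 counts in all libraries. The only tested gene of the 9 ligands, other receptors and binding proteins was Igf2r, the receptor that clears IGF2 to the lysosome, and it fell from 206 ± 4.79 to 115 ± 14.4 CPM (SD, n = 4; edgeR adjusted p = 2.99e-10).

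Among 8 IGFBP proteases and their inhibitors, 7 were tested, 2 rose, 3 fell and 2 did not pass. The stanniocalcins, which inhibit the pappalysins, moved in opposite directions: Stc1 rose from 21.6 ± 0.969 to 233 ± 17.2 CPM and Stc2 fell from 99.2 ± 5.51 to 33 ± 4.97 CPM (SD, n = 4). Pappa2, a pappalysin that cuts IGFBP3 and IGFBP5, rose at low level from 0.907 ± 0.280 to 2.53 ± 0.389 CPM. Pappa, its relative that cuts IGFBP4, had 0 counts. Htra1, a secreted serine protease, and Ctsd, the lysosomal protease cathepsin D, fell 1.43-fold and 1.74-fold.

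Of 22 adaptors and receptor regulators, 19 were tested, 6 rose, 10 fell and 3 did not pass. Socs3, a feedback inhibitor that also acts on insulin signalling, rose from 48.6 ± 4.03 to 125 ± 16.2 CPM (SD, n = 4). Ptpn2, a tyrosine phosphatase, rose 1.55-fold and Shc1, the adaptor that links the receptors to RAS, 1.25-fold. Enpp1, a membrane enzyme that inhibits the insulin receptor, fell 2.47-fold, and the receptor-binding adaptors Grb14 and Grb7 fell 3.47-fold and 1.67-fold. Irs3 and Irs4, the remaining substrate genes, had 0 counts.

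All 21 PI3K-AKT genes were tested, and 6 rose, 10 fell and 5 did not pass. The catalytic subunit genes Pik3cd and Pik3cb fell 3.81-fold and 1.71-fold and the phosphoinositide phosphatase gene Inpp5k 1.71-fold. Trib3, a pseudokinase that binds AKT and is induced by amino acid stress, rose from 12 ± 1.36 to 106 ± 26 CPM (SD, n = 4). The lipid phosphatase gene Inppl1, which encodes SHIP2, and the kinase gene Gsk3b rose 1.27-fold and 1.21-fold.

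Of 19 FOXO factors and their known targets, 14 were tested, 4 rose, 8 fell and 2 did not pass. Foxo1 rose 1.29-fold and Foxo4 fell 1.82-fold. Among targets, the cyclin gene Ccng2 and the cell cycle inhibitor gene Cdkn1b rose 2.77-fold and 2.06-fold, while the catalase gene Cat and the stress gene Sesn1 fell 2.14-fold and 2.20-fold. Of 3 IGF2 mRNA-binding protein genes, Igf2bp1 and Igf2bp2 were tested and fell 1.43-fold and 1.28-fold. No pathway gene named with a change had an edgeR adjusted p above that of Gsk3b, 6.8e-05.

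**Figure D4:**
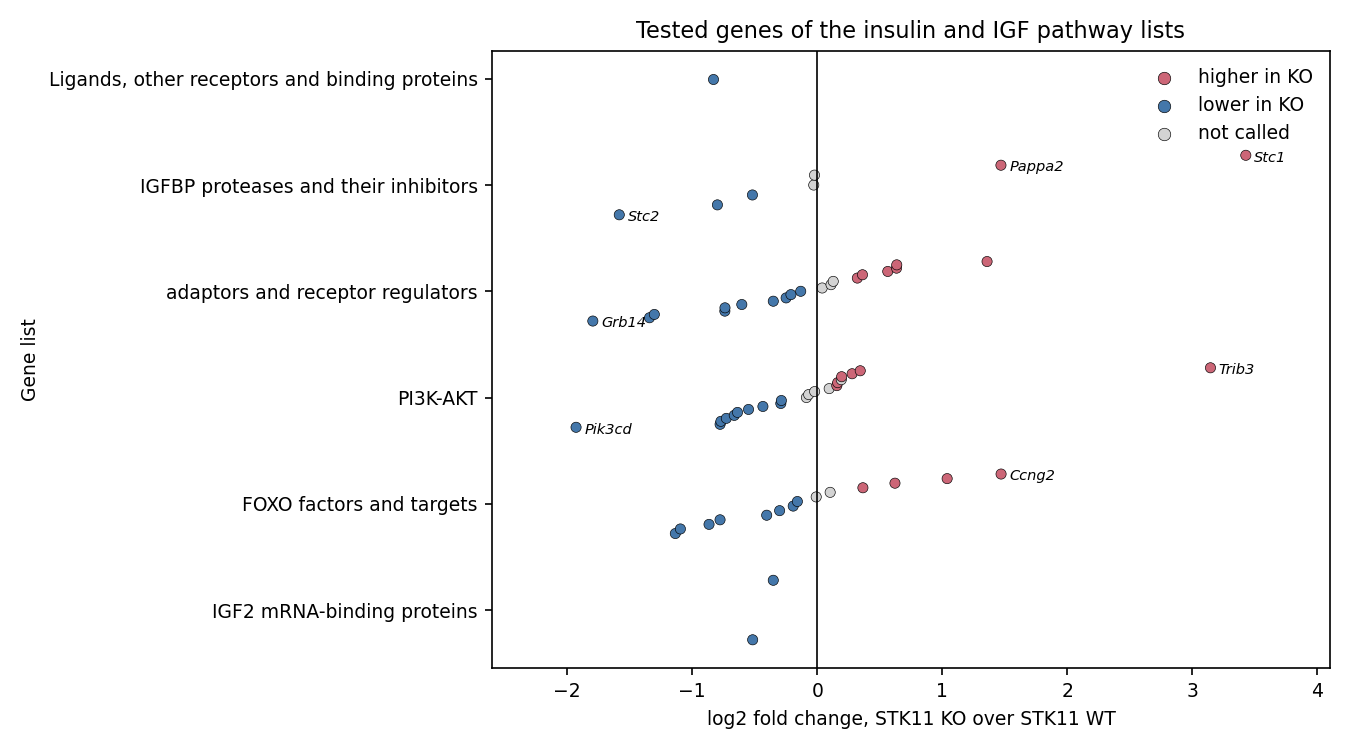
Log2 fold change, knockout over parental, of the 64 tested pathway genes by list; red points rose, blue fell and grey did not pass the test, with the most changed genes named. The 4 larger lists hold genes on both sides of 0, from Pik3cd at -1.93 to Stc1 at 3.43.

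Genes with the most similar profile were found by the root mean square distance between log2 CPM values over the 8 libraries, each gene less its own mean, among 11730 genes with established names. For Irs1 these were Mras, Fscn1 and Col4a1, at distances of 0.075, 0.093 and 0.101 log2 units, where the median gene lay at 0.929. For Irs2 they were Mlph, Cluh and Tyk2 (0.042, 0.052 and 0.059, median 0.721). For Insr they were Arid1b, Sppl3 and Tmem127 (0.041 to 0.056, median 0.262), and for Igf1r Kdm2b, Ascc2 and Ifnar2 (0.045 to 0.046, median 0.251). The named genes were picked as the nearest, so distances below the median follow from that choice for all 4 genes. With only these lines compared, the profiles of Irs1 and Irs2 are set mostly by the step between groups, which all their neighbours share.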

How the data were processed

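RNA of 8 cultures, 4 per group, was made into libraries from 100 ng with a stranded mRNA kit, per the labels, and read from both ends over 51 bp. The deposited count table holds the authors' raw counts per gene. The tools in the submitters' processing notes are STAR 2.7.9a, featureCounts 1.6.0, FastQC 0.11.8, limma and edgeR, with the build GRCm39. Their settings, including whether strand was used in counting, were not found in the sources read. The deposited log2 table holds the authors' voom values and was used in 1 alternative, limma-trend. Counts were filtered with filterByExpr and scaled by TMM, and edgeR 4.0.16 fitted the 8 libraries by group (glmQLFit, robust, then glmQLFTest), with Benjamini-Hochberg adjustment over 13707 genes and a threshold of 0.05. The script was tested on simulated counts with 200 changed genes, 13532 genes tested and the same dispersion for every gene. It recovered 82.1% of 1.5-fold, 91% of 2-fold and 97% of 4-fold changes, and 3.74% of its calls were false. Far more genes were called in the real data, so this checks the script and not the error rate here. Depth was 18837263 to 25715008 counts per library. The labels call the replicates biological and do not say what separates them. The p-values set the difference between the groups against the spread between these samples, and not against that between separately edited lines.

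All 10 members were described, with Stk11 as the check of the labels. From each pathway list up to 3 called genes with the smallest adjusted p in each direction were named. For each receptor and substrate gene the 3 tested genes with the smallest profile distance were named, on log2 CPM with a prior count of 2 and leaving out predicted gene names. The members and lists were chosen with earlier results of these data known. Gene coordinates are on GRCm39, the build of the submitters' notes. Promoter windows, from 250 bases before to 50 after the start, came from RefSeq on GRCm38.p6, where 9 of 10 members had an entry, and exon lengths from GENCODE M21. Alternatives were the DESeq2 1.42.0 Wald test, limma 3.58.1, other scalings and filters, a replicate term and leaving out each library.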

Additional observations from a re-analysis of the deposited data

Results flagged for a closer look

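In 2 of 16 groups of 4 libraries screened (each tested member in each line), 1 library lay apart from the rest, with a gap to the nearest library above the 95% critical value of Dixon's test; chance gives about 1 in 20. Igfbp3 was at 9.46 CPM in knockout replicate 2, while the other knockout libraries held 14.1 to 15 CPM, a gap of 0.833 of the range. Igfbp4 was at 473 CPM in knockout replicate 1, while the others held 415 to 424 CPM, a gap of 0.839 of the range. Both values lay below every parental library. Without knockout replicate 2 the log2 fold change of Igfbp3 was -2.38.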

How the results depend on the processing

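Over 17 alternatives, 8 of which leave out a library, 129 of 135 values of the tested members kept their direction and their side of the threshold, 5 lost their call and 1 changed sign. That 1 was Insr, never past the threshold, whose log2 fold change of -0.05 ranged from -0.139 (without knockout replicate 3) to 0.028 (without knockout replicate 2) when 1 library was left out. The 5 were Igf1r with library size alone, which left 0 members called higher in place of 1, and Igfbp6 with the DESeq2 Wald test and without parental replicate 1, knockout replicate 3 or knockout replicate 4. Library size alone moved the median log2 fold change of all genes to -0.07. Igfbp6, with 3 to 18 counts per library, was not tested with a minimum of 1 CPM in 4 libraries. All 459 values of the named pathway genes and Stk11 kept direction and call. The number of called genes was 8722 to 10335.

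Over all genes, same-numbered libraries of the groups showed no common deviation: their correlations were 0.0356, 0.00513, -0.0985 and 0.00422. The labels do not say whether they share more than a number, and these values cannot decide it. With the replicate number as a block, 9182 genes were called, with 1 member higher and 6 lower.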

Other observations

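Tensin genes, which encode focal adhesion proteins, lay near 2 of the binding protein genes called lower, and both tensin genes rose. Over all tested genes 34.4% rose. These neighbours were chosen after their values were seen, and only tensin and Igfbp genes were looked for at such distances. The call of Igfbp6 itself was lost in some alternatives. Tns4, 11.3 kb from Igfbp4 on the opposite strand, went from 1153 ± 18.6 to 1353 ± 63 CPM (SD, n = 4; log2 fold change 0.23 ± 0.06, SE, edgeR adjusted p = 0.000909). Tns2, 28 kb from Igfbp6 on the same strand, went from 73.5 ± 6.43 to 118 ± 8.56 CPM (SD, n = 4; log2 fold change 0.68 ± 0.07, SE, edgeR adjusted p = 3.82e-09).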
